A study of Mus musculus with 8 samples.

Results

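Small RNA on 8 microRNA genes of the mouse X chromosome (Mir741, Mir743, Mir871, Mir881, Mir883a, Mir470, Mir471 and Mir547) was followed through chromatoid body purification from adult testis. The genes were taken by name. All 8 of them had a row in each of the 5 deposited tables, among 10822 feature names and 420 microRNA genes in all. Per the labels and the file columns, the libraries were the supernatant (1 library), a first and a second pellet (1 library each, 1 column for both), MVH immunoprecipitates (IP; 2 libraries, 1 column), a control IP with an antibody to acrosin, ACR (1 library), sorted round spermatids labelled hetMIWI (1 library), and the lysate of testis cells from which the fractions were made (1 library). All mice were C57BL/6 and at least 6 weeks old. The label hetMIWI names MIWI, the mouse PIWI protein PIWIL1, and the genotype is described no further. MVH is the RNA helicase DDX4, a core protein of the chromatoid body, and acrosin is a protease of the acrosome. After formaldehyde cross-linking, the cell suspension was sonicated and spun, which gave the supernatant and the pellet, and gel selection kept RNA between 19 and 33 nt. The protocol puts both IPs on the second pellet, whereas the sample labels derive them from lysate.

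A microRNA gene is transcribed as a long primary RNA that is cut to a hairpin and then to a short duplex, of which one arm is loaded into an Argonaute protein. The loaded arm pairs with target mRNA mainly through its seed, the bases just inside its 5′ end. The X chromosome carries a group of microRNA genes between Slitrk2 and Fmr1 that are expressed mainly in testis, and X-linked microRNAs have been described as expressed in meiosis, when most genes of the X are silenced. Round spermatids, which arise from meiosis and are haploid, assemble in their cytoplasm the chromatoid body, a granule of RNA and protein that holds PIWI proteins and microRNA pathway proteins.

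The 7 genes other than Mir547 lie on the minus strand of chromosome X within 37.3 kb (mm9, 64029932 to 64067200), in the intergenic region between Slitrk2 and Fmr1. Transcription would run from Mir470 (64067126 to 64067200) through Mir871 (64063603 to 64063679), Mir881 (64055119 to 64055196), Mir741 (64049980 to 64050050), Mir471 (64045770 to 64045836) and Mir883a (64033933 to 64034008) to Mir743 (64029932 to 64029993). Mir547 (65241549 to 65241626) lies 1.17 Mb away on the same strand, beside Mir201, so it is not a close neighbour of the other 7.

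The 16 mature sequences of the 8 genes in RefSeq (GRCm38.p6, minus strand of X) are 21 to 23 nt long and have 15 different seeds. Of the seeds, 12 are found in no other mouse mature name of the RefSeq table, so that most members have target-pairing bases of their own. The sequences below are those of the members on which the comparisons turn, with the seed, bases 2 to 8, in capitals.
mmu-miR-871-5p: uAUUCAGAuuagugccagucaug
mmu-miR-743a-5p: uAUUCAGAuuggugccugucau
mmu-miR-871-3p: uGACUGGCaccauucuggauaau
mmu-miR-743a-3p: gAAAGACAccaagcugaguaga
mmu-miR-883a-3p: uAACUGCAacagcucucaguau
mmu-miR-883a-5p: uGCUGAGAgaaguagcaguuac
mmu-miR-741-3p: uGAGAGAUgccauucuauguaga
mmu-miR-741-5p: uACGUAGAuugguaccuaucaug
mmu-miR-471-5p: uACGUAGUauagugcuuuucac
mmu-miR-471-3p: uGAAAGGUgccauacuauguau
The 5p arms of Mir871 and Mir743 share the seed AUUCAGA and differ over 22 bases, counted from the 5′ end, by G11A and U17A from miR-743a to miR-871. The 5p arms of Mir741 and Mir471 share all but the last base of the seed (A8U) and differ at 7 of 22 bases. The seed of miR-883a-3p is that of miR-883b-3p, from which it differs by G12U, and the seed of miR-743a-3p is that of miR-743b-3p, with C9U, A12U and G18A between them. The tables give 1 value per hairpin locus, so the arm that was sequenced is not given, and how the authors assigned reads that match close copies is not stated in the labels. Among the members, miR-470 has been described to target coding regions of pluripotency genes in mouse embryonic stem cells, miR-471-5p has been studied in Sertoli cells, and miR-743a has been described to target the mitochondrial malate dehydrogenase Mdh2.

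Values are FPKM, fragments scaled to locus length and library size, as deposited. In the ACR IP, the FPKM values of loci of 62 to 84 bases were whole multiples of a value that grew as the locus shortened, taken as the worth of 1 read, and most low values of the other columns lay on multiples of a step of their own (56 of 71 in round spermatids, against 27 of 71 for a step moved by 0.5%). A read on a 62-base locus such as Mir743 was worth 2.63 times a read on an 84-base locus, against 1.27 times for the 78 bases of Mir881 and Mir547, so the order of genes by FPKM is not their order by reads. Dividing by this worth gave implied reads, the smallest read numbers that the values allow; whole multiples of them cannot be told apart, and some come out as fractions, such as 323.5 for Mir871 in round spermatids. The 8 genes had 22806 implied reads in the supernatant, between 1196 and 1600 in the pellet, 16 in the ACR IP, 176 in the MVH IP, 1083.5 in round spermatids and 12400.5 in the lysate. Each group is given by 1 column of values, so a ratio compares columns and not conditions, no test between groups was possible, and counting SEs and intervals cover counting error only.

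The germ cell microRNAs fixed as markers (7 genes, the Mir34 and Mir449 family, Mir184 and Mir469) made up 33.4% of the microRNA FPKM sum in the MVH IP, with 6 of 7 above 0, and 30.7% in round spermatids, with 6 of 7 above 0, against 26.2% in the lysate with 7 of 7. The sum hides opposite moves: in round spermatids Mir184 made up 18.7%, against 0.624% in the lysate, and Mir469 6.17%, against 0.850% in the lysate, whereas Mir34c made up 3.97%, against 19.6% in the lysate. Of the 6 germ cell markers with a row in round spermatids, 2 had a higher share than in the lysate and 4 a lower one. In the MVH IP 4 had a higher share and 2, Mir449a and Mir449c, a lower one. Mir34c alone made up 23.6% there, against 19.6% in the lysate. Blood microRNAs made up 0.672% in the MVH IP (Mir451, Mir142 and Mir223) and 0.0898% in round spermatids (Mir451 and Mir142, with Mir144 at 0), against 2.30% in the lysate (Mir451, Mir144 and Mir142). Mir451 alone, the red cell microRNA, made up 0.228% in the MVH IP and 0.0230% in round spermatids, against 1.91% in the lysate. Mir142 went the other way in the MVH IP, with 0.367% against 0.274% in the lysate, and had 0.0668% in round spermatids. The Sertoli cell microRNA Mir202 made up 0.177% in the MVH IP and 0.184% in round spermatids, against 1.10% in the lysate. The vessel wall microRNAs (3 of 3) made up 1.39% in the MVH IP and 1.35% in round spermatids, against 1.76% in the lysate. Within that sum Mir145 had a higher share in round spermatids than in the lysate, while Mir143 and Mir126 had lower ones. Mir145 had 17039.2 FPKM in round spermatids and 37359.3 FPKM in the lysate, whose microRNA sum is larger. In the MVH IP Mir143 had a slightly higher share, with 129411 FPKM against 241764 FPKM in the lysate. Of 5 spermatid mRNA genes, 1 (Prm1) had a row in the round spermatid table.

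The 8 genes spanned a wide range of levels in every column. Together they made up 6.41% of the microRNA FPKM sum in the supernatant, 5.05% in the pellet, 4.26% in the MVH IP and 7.72% in round spermatids, against 7.09% in the lysate. These sums run over unlike lists of microRNA genes. For the same lysate library the share was 9.13% over the 293 microRNA genes listed with the ACR IP. Shares of different columns, those of the markers included, are therefore not strictly comparable. Mir741 was the highest of them in each of these columns, ranking 9th of 386 microRNA genes in the supernatant, 11th of 363 in the pellet, 13th of 217 in the MVH IP and 10th of 259 in round spermatids, against 7th of 386 in the lysate. Mir871 ranked 11th in round spermatids, against 39th in the lysate. Mir883a, at the other end, ranked 140th of 217 in the MVH IP and 115th of 259 in round spermatids, against 54th of 386 in the lysate.

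**Figure D1:**
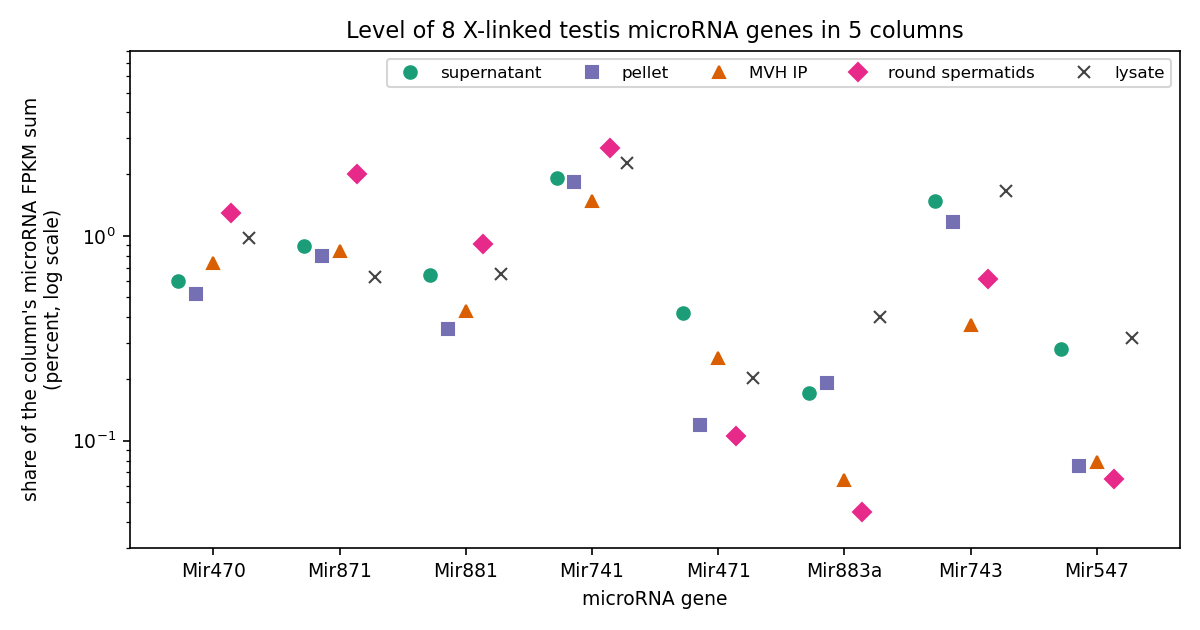
Share of the microRNA FPKM sum (percent, log scale) of each of the 8 genes in the supernatant, pellet, MVH IP, round spermatids and lysate, 1 deposited column each, with the genes in order along the chromosome and Mir547 last. Mir741 is the highest gene of every column, and Mir871 is the gene whose point for round spermatids stands farthest above that for the lysate.

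The order of the genes by FPKM was the same in the MVH IP and in round spermatids. It ran Mir741, Mir871, Mir470, Mir881, Mir743, Mir471, Mir547 and Mir883a in both. In the lysate the order was Mir741, Mir743, Mir470, Mir881, Mir871, Mir883a, Mir547 and Mir471. In the MVH IP, with 176 reads, Mir741 and Mir871 were the sole neighbours in the order that differed by more than 1.96 counting SE, so the rest of that order is not resolved. In round spermatids all neighbours differed beyond it except Mir471 with Mir547 and Mir547 with Mir883a, and in the lysate all except Mir881 with Mir871.

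The supernatant comparison set the relative level of each RNA after the first spin against that in the lysate. It does not give the amount of an RNA that stayed in solution. Mir471 and Mir871 were the members with the highest ratio, and Mir883a and Mir470 were below the lysate. Mir471 had 114931 FPKM in the supernatant, against 40898.7 FPKM in the lysate, giving a log2 ratio of 1.49 (SE 0.090, from the authors' deposited statistic). Mir871 had 245855 FPKM in the supernatant and 127395 FPKM in the lysate, giving a log2 ratio of 0.95 (SE 0.043). Mir883a had 46975.1 FPKM in the supernatant and 80914 FPKM in the lysate, giving a log2 ratio of -0.78 (SE 0.074). Between the highest and the lowest member, Mir471 stood 2.28 log2 units above Mir883a (SE 0.12).

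The other members lay close to the lysate. Mir470 had 165264 FPKM in the supernatant and 197275 FPKM in the lysate, giving a log2 ratio of -0.26 (SE 0.043). Mir881 had 177325 FPKM in the supernatant and 131124 FPKM in the lysate, giving a log2 ratio of 0.44 (SE 0.044). Mir743 had 408009 and 332072 FPKM in supernatant and lysate, with 0.30 (SE 0.041). Each of these ratios is smaller in size than that of Mir471, Mir871 or Mir883a. Mir741, the highest of them, had 526206 FPKM in the supernatant and 456504 FPKM in the lysate, with 0.21 (SE 0.029). Mir547 had 76544.5 FPKM in the supernatant and 63717.5 FPKM in the lysate, with 0.26 (SE 0.066).

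By count, 1 of 8 members (Mir471) was past 2-fold in the higher direction, against 7.16% of all features and 15.5% of microRNA genes. In the lower direction 0 members were past 2-fold, against 5.42% of all features and 12.7% of microRNA genes. In the authors' deposited table all 8 had a q-value below 0.05, the largest being 0.000998846 for Mir547, with 6 higher and 2 lower in the supernatant. That holds for 24.6% of microRNA genes and 3.82% of all features in the higher direction, and for 9.33% and 4.9% of them in the lower. The authors' q-values compare 1 library with 1 library. The members had from 287 (Mir471) to 3852 (Mir741) implied reads in the lysate, and a log2 ratio as small as 0.21 (Mir741) passed. Of 11 other genes of the X-linked cluster, 9 also had a q-value below 0.05. The member median was 0.28, against 0.21 for microRNA genes and 0.02 for all features.

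**Figure D2:**
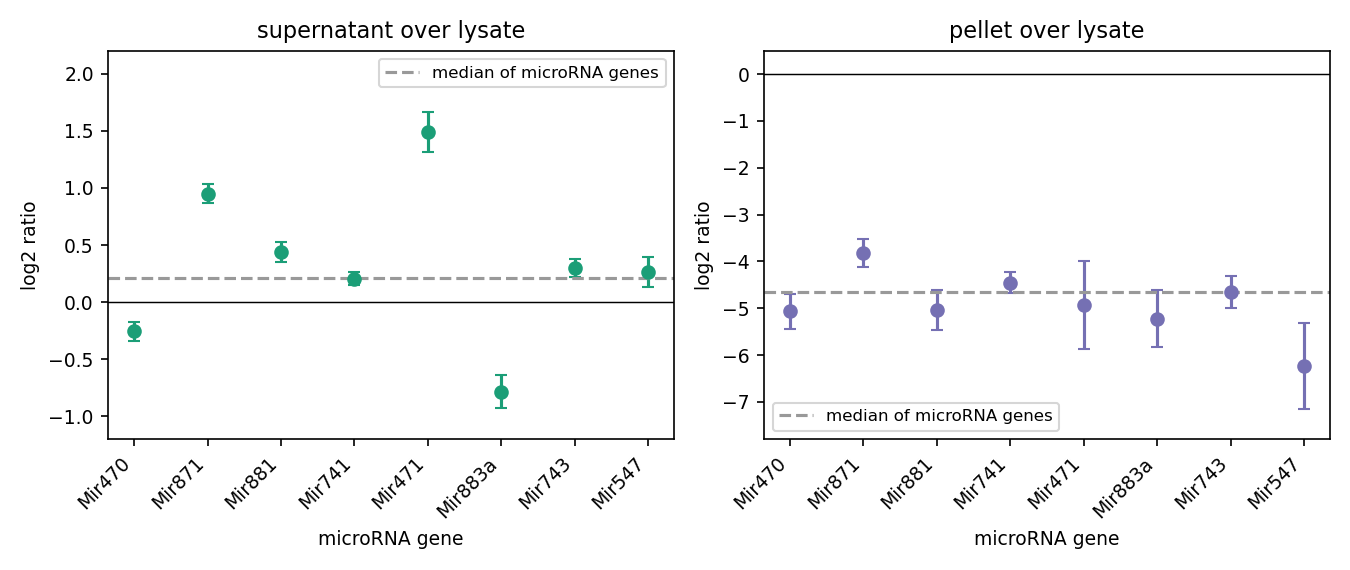
Log2 ratio of FPKM of each gene in supernatant over lysate (left) and pellet over lysate (right), with bars of 1.96 SE from the authors' deposited statistic and a dashed line at the median of microRNA genes. Mir471 and Mir871 stand above the dashed line in the supernatant, and in the pellet Mir871 is the highest and Mir547 the lowest of the 8.

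In the pellet column all 8 members were lower than in the lysate, as were most microRNAs of that table. The 8 of 8 at least 2-fold lower stand beside 86.5% of all features and 93.4% of microRNA genes, so the count is that of the table; none of the 8 was higher, beside 8.75% of all features and 4.41% of microRNA genes. In the authors' deposited table all 8 were lower at a q-value below 0.05, as were 69.4% of all features and 72.7% of microRNA genes, while 5.59% and 1.38% were higher. The member median of -4.98 compares with -4.65 for microRNA genes and -2.20 for all features. Mir871 was the least reduced, with 21482.4 FPKM in the pellet, against 304516 FPKM in the lysate, giving a log2 ratio of -3.83 (SE 0.15). Mir547 was the most reduced, with 2027.14 FPKM in the pellet, against 152306 FPKM in the lysate, giving a log2 ratio of -6.23 (SE 0.47). The ratio of Mir871 was 2.41 log2 units above that of Mir547 (SE 0.49).

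The other 6 lay between -5.22 and -4.46. Mir741 had 49703.7 FPKM in the pellet and 1091190 FPKM in the lysate, with -4.46 (SE 0.11), and Mir743 had 31518.9 and 793762 FPKM in pellet and lysate, with -4.65 (SE 0.17). Mir471, the member highest in supernatant over lysate, had 3221.26 FPKM in the pellet and 97761.3 FPKM in the lysate, with -4.92 (SE 0.48), on 23.0 to 30.7 implied pellet reads. Mir881 had -5.04 (SE 0.22), Mir470 -5.06 (SE 0.19) and Mir883a -5.22 (SE 0.31). The lysate column of this table is 2.39 times that of the supernatant table for every member, so its FPKM values are not on that table's scale.

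The ACR IP, the control with an antibody to an acrosomal protein, held 16 implied reads on the 8 genes, too few to describe single members closely. Mir871 had 5 reads and 9528.44 FPKM in the ACR IP, against 265272 FPKM in the lysate. Mir883a had 4 reads, Mir741, Mir471 and Mir743 had 2 each, and Mir470 had 1. Mir881 and Mir547 were listed at 0. With a floor of 3 reads, Mir881 was at least 49.7-fold lower and Mir547 at least 18.4-fold lower than in the lysate. All 8 were at least 2-fold lower, beside 59% of all features and 97.6% of microRNA genes, with 36.4% and 0.685% past 2-fold higher. The member median was -5.22 with the members at 0 set at 3 reads and -7.05 with the pseudocount of 1 FPKM alone, and the summed share of the microRNA FPKM was 7.11% in the ACR IP, against 9.13% in the lysate column of that table.

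Round spermatids were set against the lysate across tables that were normalized separately, so the level of all ratios is arbitrary. Their differences between members do not depend on that level. For Mir547 they do depend on which lysate column is used, as given in the last section. Mir871 had the highest ratio and Mir883a the lowest. Mir871 had 88456.3 FPKM in round spermatids, from 323.5 implied reads, against 127395 FPKM in the lysate, giving a log2 ratio of -0.53 (counting SE 0.089). Mir883a had 1995.57 FPKM in round spermatids, from 7 reads, against 80914 FPKM in the lysate, giving a log2 ratio of -5.34 (counting SE 0.55). The difference between them was 4.81 log2 units (SE 0.55). In these bulk libraries, fewer cells that hold an RNA and less of it per cell cannot be told apart.

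Mir741, Mir470 and Mir881 followed Mir871. Mir741 had 118970 FPKM in round spermatids and 456504 FPKM in the lysate, giving a log2 ratio of -1.94 (counting SE 0.082). Mir470 had 57096.7 FPKM in round spermatids and 197275 FPKM in the lysate, with -1.79 (counting SE 0.11), and Mir881 had 40147 and 131124 FPKM in round spermatids and lysate, with -1.71 (counting SE 0.12). These 3 members differ little from each other. Mir743 had 27241.7 FPKM in round spermatids, against 332072 FPKM in the lysate, with -3.61 (counting SE 0.21). Mir471 had 4683.4 FPKM in round spermatids, from 11 reads, against 40898.7 FPKM in the lysate, with -3.13 (counting SE 0.44). Mir547 had 2886.39 FPKM in round spermatids, also from 11 reads, against 63717.5 FPKM in the lysate, with -4.46 (counting SE 0.44).

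The members thus fell on both sides of the microRNA median of -2.77, with Mir871, Mir881, Mir470 and Mir741 above it and Mir471, Mir743, Mir547 and Mir883a below it. Their own median was -2.53, and that of all features 0.33. At least 2-fold lower were 7 of 8, beside 26.5% of all features and 74.4% of microRNA genes, and 0 were past 2-fold higher, beside 24.1% and 9.45%. Mir871 and Mir743, whose 5p arms share a seed, differed by 3.08 log2 units (SE 0.23), with Mir871 higher. In the supernatant the same pair differed by 0.65 (SE 0.060).

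Shares of the reads of the 8 genes do not depend on the scale of a table. Mir871 made up 29.9% of the member reads in round spermatids, against 11.2% in the lysate, 17.7% in the supernatant and 19.9% in the pellet. Mir743 made up 4.61% in round spermatids, against 14.7% in the lysate, and Mir883a 0.646% against 6.84% in the lysate. Mir547 made up 1.02% in round spermatids, against 5.85% in the lysate. Mir741 took 31.0% in round spermatids and 31.1% in the lysate, so its place among the members was nearly equal. For 5 of 8 members the exact 95% binomial intervals of the shares did not overlap between round spermatids and lysate, these being Mir871, Mir471, Mir883a, Mir743 and Mir547. Between supernatant and lysate the same held for 6 of 8, on more reads, so such a count is not particular to round spermatids. The shares are taken within the 8 genes, so no count over all features stands beside it. The summed blood and vessel wall marker shares and that of Mir202 were also lower in round spermatids than in the lysate, though that of Mir145 was not, as given above. The part of these markers in the ratios was not tested.

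**Figure D3:**
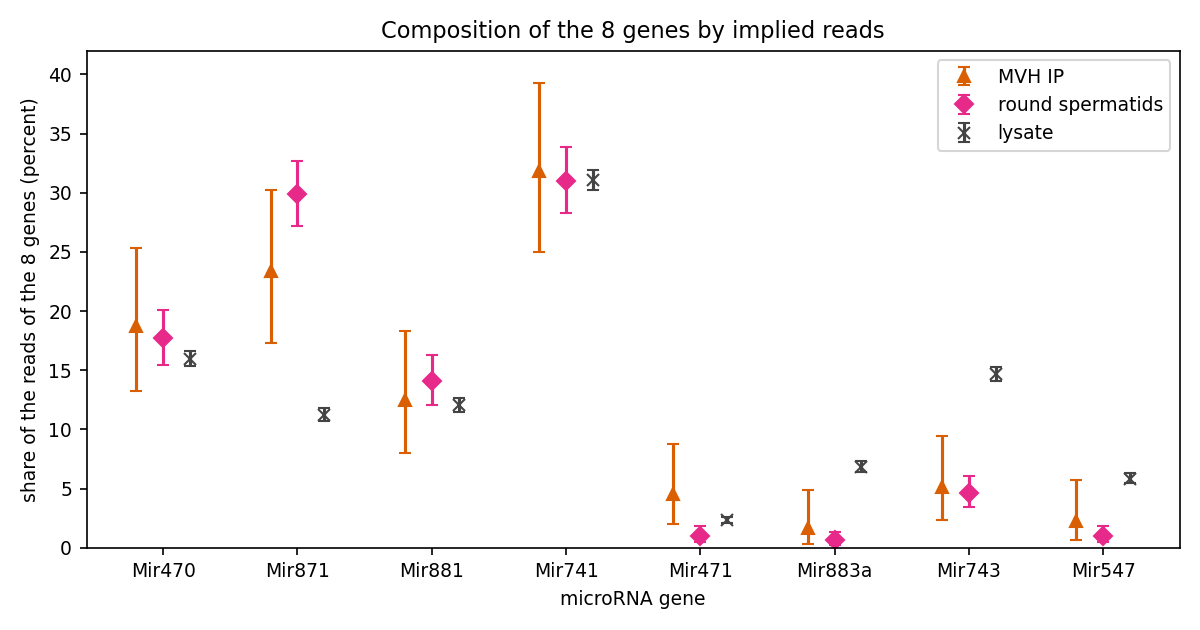
Share of the implied reads of the 8 genes (percent) held by each gene in the MVH IP, round spermatids and lysate, with exact 95% binomial intervals. Mir871 holds 23.4% in the MVH IP and 29.9% in round spermatids, above its 11.2% in the lysate, whereas Mir743 and Mir883a are lower in both than in the lysate. In the supernatant and pellet, which are not drawn, Mir871 is above the lysate as well.

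The MVH IP was made with an antibody to a chromatoid body protein. Its member composition, from the 1 column for both libraries, was compared with those of the other columns. Summed over the 8 genes, 8.15 percentage points of the reads would have to move between genes to turn the MVH IP composition into that of round spermatids, against 18.3 for the lysate and 16.3 for the pellet. The reads of the 2 libraries can be told apart from the column's values, as set out further on, and the lower distance to round spermatids came from the first of them. The first library lay 8.80 points from round spermatids and 22.6 from the lysate, and the second lay 17.6 points from round spermatids and 19.4 from the lysate. Mir871 made up 23.4% of member reads in the MVH IP, against 11.2% in the lysate, Mir743 5.10% against 14.7% in the lysate, and Mir883a 1.72% against 6.84% in the lysate. For these 3 members the intervals of the column did not overlap with those of the lysate. In the first library alone this held for Mir871 and Mir743, and in the second alone for Mir883a and Mir471, so none of the 8 did so in both. Between the MVH IP and round spermatids they failed to overlap for 1 member, Mir471, with 4.53% in the MVH IP and 1.02% in round spermatids; it was none in the first library and Mir871 and Mir471 in the second. Mir871 also exceeded its lysate share in the supernatant (17.7%), the pellet (19.9%) and, on 16 reads, the ACR IP (31.25%). Its pellet share lies within its MVH IP interval of 17.3 to 30.2%. Mir883a had 3.24% in the supernatant and 4.61% in the pellet, also below the lysate, and Mir743 had 14.7% in each. The distances carry the counting error of 176 reads and were not tested.

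As ratios to the lysate, the MVH IP values again ran from Mir871 to Mir883a. These ratios also cross tables that were normalized separately, so their level, and with it any 2-fold count, is arbitrary. Mir871 had 88262.7 FPKM in the MVH IP, against 127395 FPKM in the lysate, giving a log2 ratio of -0.53 (counting SE 0.23). Mir471 had 26628.1 FPKM in the MVH IP, from 8 reads, against 40898.7 FPKM in the lysate, with -0.62 (counting SE 0.52). Mir883a had 6763.54 FPKM in the MVH IP, from 3 reads, against 80914 FPKM in the lysate, with -3.58 (counting SE 0.83). Mir743 followed at 38383.7 FPKM in the MVH IP, against 332072 FPKM in the lysate, with -3.11 (counting SE 0.48), and Mir547 at 8237.16 FPKM, against 63717.5 FPKM in the lysate, with -2.95 (counting SE 0.72). Mir741 had 155783 FPKM in the MVH IP and 456504 FPKM in the lysate, with -1.55 (counting SE 0.19), Mir881 had 45209.3 and 131124 FPKM with -1.54 (counting SE 0.31), and Mir470 had 76961.9 and 197275 FPKM with -1.36 (counting SE 0.25).

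Of the 8 members, 6 were at least 2-fold lower in the MVH IP, beside 38.5% of all features and 60.2% of microRNA genes, and 0 past 2-fold higher, beside 20.6% and 16.8%. The member median of -1.54 was close to the microRNA median of -1.38. All features had -0.15. The MVH IP values were sums of 2 read worths (1.1347 and 1.11739 in units of 1 ACR IP read), the pattern of a mean of 2 libraries, which gave each library's reads but not which is replicate 1. One library held 94 reads on the 8 genes and the other 82. Mir741 had 32 reads in the first and 24 in the second. Mir871 had 29 and 12 reads, or 30.9% and 14.6% of member reads, with intervals of 21.7 to 41.2% and 7.80 to 24.2% that overlap. Mir883a had 3 and 0. The share of Mir871 in the second library, 14.6%, is nearer to the 11.2% of the lysate, so its higher share in the MVH IP rests largely on the first.

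Along the chromosome, the members nearer to Mir470 had the higher ratios in round spermatids. The 4 upstream genes Mir470, Mir871, Mir881 and Mir741 held 92.7% of member reads in round spermatids and 86.4% in the MVH IP, against 70.3% in the lysate. The lowest of these 4 in round spermatids over lysate, Mir741, stood 1.19 log2 units (SE 0.45) above the highest of the 3 downstream genes, Mir471. That gap holds among the members only. Other genes of the cluster lie between Mir881 and Mir741. Of these, Mir878 (-3.39) and Mir880 (-3.95) were below Mir471 (-3.13), and Mir463 (-1.99) was above it. The split into 4 and 3 genes was made after these ratios were seen, and it did not separate the genes in the other comparisons, where the lowest upstream minus the highest downstream ratio was -0.93 in the MVH IP (SE 0.55), -0.41 in the pellet (SE 0.26) and -1.75 in the supernatant (SE 0.0995). Over the 7 neighbouring genes the Spearman correlation of the round spermatid ratio with distance downstream was -0.86 (n = 7 genes of 1 library pair). Over 17 cluster genes within the region it was -0.89, and it was -0.78 over 13 genes without the Mir465 copies, whose near-identical sequences may share reads. In the MVH IP it was -0.68 over the 7 genes and -0.24 over 16 cluster genes, and in supernatant and pellet it was -0.07 over the 7 and -0.29 and -0.37 over the 17. These correlations are descriptions, since genes of 1 library are not replicates.

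**Figure D4:**
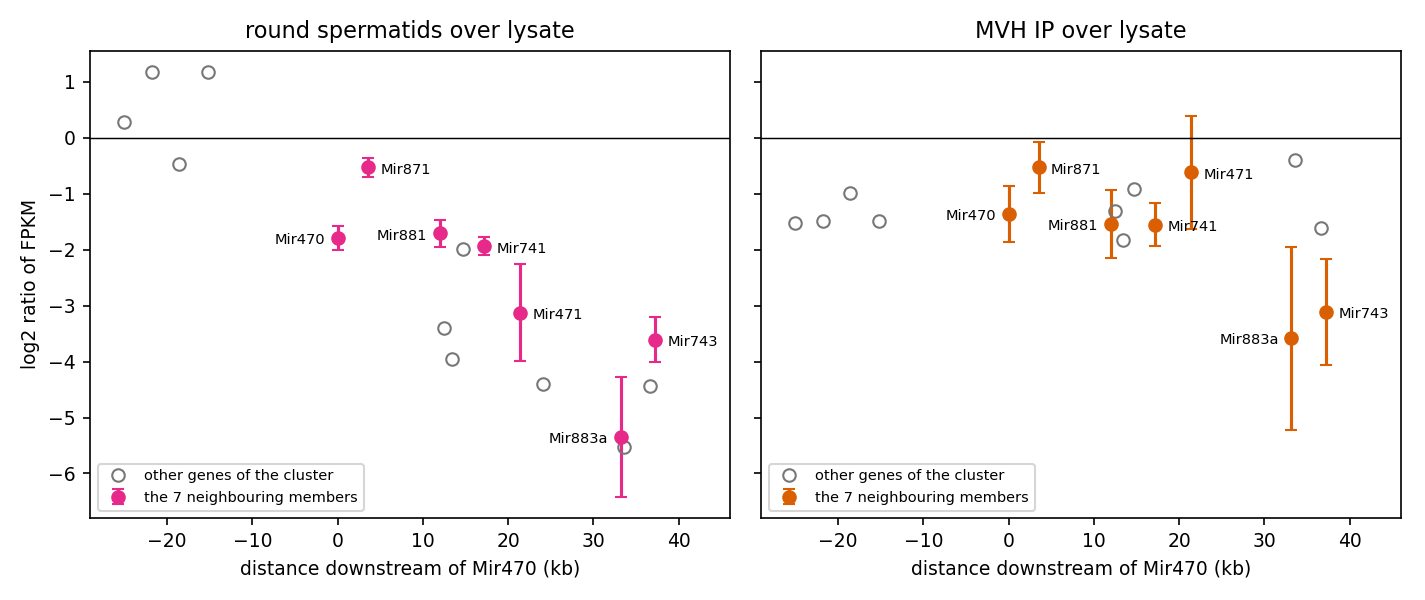
Log2 ratio of FPKM in round spermatids over lysate (left) and MVH IP over lysate (right) against distance downstream of Mir470 in kb, with bars of 1.96 counting SE for the 7 neighbouring members and open circles for other genes of the cluster. In round spermatids the ratios tend to be lower farther downstream, down to -5.34 for the member Mir883a and -5.54 for Mir742, an open circle beside it. In the MVH IP the open circles lie between -1.83 and -0.39.

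Of 16 other genes of the X-linked cluster named in a fixed list, 11 had a row. In the lysate Mir880 (174509 FPKM) and Mir878 (91075.1 FPKM) were the highest of them and Mir883b (11153.8 FPKM) the lowest, followed by Mir465b-1 and Mir465b-2 at 24253.9 FPKM each. In round spermatids Mir880 had 11283.1 FPKM and Mir883b 524.797 FPKM, the latter from 2 reads. Their log2 ratios to the lysate were -3.95 and -4.41, both below the microRNA median of -2.77. The Mir465b genes had 54849.8 FPKM each in round spermatids and a log2 ratio of 1.18, above that median. Past 2-fold in round spermatids, 2 of the 11 were higher, beside 24.1% of all features and 9.45% of microRNA genes. These 2 are Mir465b-1 and Mir465b-2, which have the same value as each other in every column that lists them. They are therefore not independent values in the counts or medians. Another 7 were lower, beside 26.5% and 74.4%, and the median of the 11 was -3.39. In the supernatant their median was 0.57 and in the MVH IP -1.48 (10 genes).

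The microRNA genes most like the median profile of the members were sought over the log2 ratios to the lysate in supernatant, pellet, round spermatids and MVH IP, among 148 other microRNA genes. The nearest were Mirlet7e, Mirlet7a-2 and Mirlet7a-1, each at a root mean square distance of 0.34 log2 units, then Mir532 at 0.39 and Mir143 at 0.40. The members themselves lay between 0.40 (Mir741) and 1.82 (Mir883a) from their own median, and 115 of the 148 others were at most as far as Mir883a.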

How the data were processed

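The authors' 5 deposited tables give FPKM (named per the file headers for round spermatids, otherwise taken from column names and values); TopHat, Cuffdiff and mm9 are named per the submitters' processing notes, without versions. Nothing in the labels states the annotation or the handling of reads with several matches. The deposited q-value and the test statistic, a score with no fixed range, come from the authors' supernatant and pellet tables. The labels tie 1 pellet column to both pellet samples and 1 MVH IP column to both libraries; they are the authors' values. A further column of the MVH IP table, 1 in all, belongs to no sample here and was not used.

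Log2 ratios were log2((fraction FPKM + 1)/(lysate FPKM + 1)), where at least 1 of both columns reached 1 FPKM; they understate changes of low features. SEs are the log2 ratio divided by the authors' statistic, or counting SEs from implied reads. Ratios of round spermatids and MVH IP used the lysate column of the supernatant table. Reads were implied from low FPKM values: all 34 of 34 ACR IP values were whole within 0.03, and on the recovered step lay 37 of 42 values in supernatant, 23 of 30 in pellet (2 steps), 36 of 42 in MVH IP (2 steps), 56 of 71 in round spermatids and 41 of 52 in lysate. The worth of a read was set from these same ACR IP values. For columns with 1 step, a step was accepted only where at least 75% of low values lay on it. These counts are therefore not independent checks. Depth is otherwise unknown. Start positions in the tables count from 0 and are given from 1. The procedure was tested on simulated data. Named genes were all members, the 2 highest and 2 lowest in lysate of a fixed list of other cluster genes, and the 5 nearest profiles (lysate at or above 1000 FPKM). Members and lists were chosen with earlier results of these data known. Tools were matplotlib 3.10.9, scipy 1.17.1, pandas 2.3.3, numpy 2.4.6 and Python 3.11.15.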

Additional observations from a re-analysis of the deposited data

How the results depend on the processing

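No paired analysis was possible because each comparison has 1 column per group and the groups share no more than 1 replicate number; among the groups, the MVH IP alone could be taken without a library, from the implied reads, a choice made after seeing the data. Leaving out each MVH IP library gave a member median of -1.79 to -1.55, 7 members lower and 0 higher in both cases, and composition distances of 8.80 to 17.6 points from round spermatids, 19.4 to 22.6 from the lysate and 15.2 to 23.7 from the pellet. Centring on the median of microRNA genes changed most: the member median became 0.074 in the supernatant, -0.33 in the pellet, 3.36 in the ACR IP (direction turned, with 220 of 292 microRNA genes at 0 there), 0.24 in round spermatids (direction turned) and -0.17 in the MVH IP, with 1 of 8 lower in the pellet, 6 higher and 2 lower in the ACR IP, 2 higher and 2 lower in round spermatids and 3 lower in the MVH IP. Centring on all features gave -2.79 in the pellet, -4.35 in the ACR IP and -2.86 in round spermatids. At 1.5-fold the supernatant had 2 higher and 1 lower. At 4-fold it had 0 higher, round spermatids 4 lower and the MVH IP 3 lower. No share of all features at these thresholds, after centring or without a library was taken, so these counts cannot be read against their tables. As shares of the microRNA FPKM sum the medians were -0.34 in round spermatids and -0.60 in the MVH IP. With the lysate column of the pellet table they were -3.79 and -2.80 in round spermatids and MVH IP, and with that of the ACR IP table -3.59 and -2.60; these shifts follow from the scale of each lysate column. Leaving out Mir743 and Mir883a gave -1.86 in round spermatids, and leaving out Mir547, chosen after seeing the data, -1.94. The members' share of lysate microRNA FPKM was 9.13% in the ACR IP table. Mir547 had 0.663 of its pellet-table lysate value there, against about 0.87 for the other members; the cause was not tested. By FPKM in place of reads, an alternative chosen after seeing the data, the share of Mir741 in round spermatids minus lysate was 2.91 percentage points, with -0.05 by reads. By FPKM, the differences from the lysate in round spermatids also moved for Mir743 (-15.2, with -10.1 by reads), Mir883a (-5.07, with -6.19) and Mir547 (-3.61, with -4.84), and in the MVH IP for Mir743 (-14.6, with -9.59); with the ACR IP table's lysate column Mir547 had -3.51 in round spermatids. The other 56 summary values and 26 differences of single members kept their direction; each difference stayed within its counting interval, in some cases a wide one (Mir741 in the MVH IP 2.99 by FPKM, with 0.77 by reads). Counts of 16 reads in the ACR IP and 176 in the MVH IP limit those columns.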
